A study of Mus musculus with 3 samples.

Results

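Bone morphogenetic protein (BMP) signaling and its ID target genes were followed in 10 genes chosen by symbol from the 18287 genes listed in the deposited count table: the ligands Bmp4 and Bmp6, the receptors Bmpr2, Acvrl1 and Eng, the inhibitory SMADs Smad6 and Smad7, and Id1, Id2 and Id3. All 10 were listed. RNA came from mouse aortic endothelial cells, bought as a culture together with their medium, with 1 library in each of 3 groups: untreated control cells; cells exposed for 30 min to glucose oxidase (5 mU/mL), which oxidizes glucose and releases hydrogen peroxide; and cells exposed to that enzyme and to ethyl-2-hydroxybenzylamine (Et2HOBA) at 0.2 mM for 24 h, a scavenger of isolevuglandins, which are reactive lipid aldehydes that bind proteins. The order of the last 2 exposures is not given in the labels, and Et2HOBA alone was not analysed here. Strain, sex, age and number of animals behind the culture are not given in the sources used here.

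BMP ligands bind a complex of type I and type II serine/threonine kinase receptors, which phosphorylates the receptor SMADs; these join SMAD4 and enter the nucleus. In endothelium the type I receptor encoded by Acvrl1, with the co-receptor endoglin (Eng) and the type II receptor encoded by Bmpr2, responds to circulating BMP ligands and is known for its part in vessel quiescence and in inherited vascular malformations and pulmonary arterial hypertension. ID genes are direct targets of the pathway. Their proteins have a helix-loop-helix but no DNA-binding region, and hold E proteins such as those encoded by Tcf3, Tcf4 and Tcf12 off DNA. Smad6 and Smad7 are also induced by the pathway and inhibit it.

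With 1 library per group, no difference has a replicate check and none was tested. Each ratio is given with its exact 95% Clopper-Pearson interval, computed from the read counts of the pair of libraries. The interval holds the scaling between libraries fixed. It covers the error of counting alone and says nothing of the spread between cultures. Libraries held between 35005089 and 40212212 reads over the listed genes, and all 12 endothelial markers were listed, among them Cdh5 with 55360, 45034 and 63665 reads in the order control, glucose oxidase, both agents. The summed normalized count of these markers was 385394, 253568 and 230979 in the same order. With Et2HOBA, 5 of the 12 lay lower than control by 1 log2 unit or more and 0 higher, beside 8.04% and 6.66% of all genes. Unlike Cdh5, Vwf had 46607, 21567 and 12545 reads. Of the markers of other cell types, Lyve1 (lymphatic endothelium) had 11828, 22417 and 33226 reads, Cd68 (macrophages) 8215, 17067 and 27799 and Pdgfra (fibroblasts) 107, 1325 and 2821, while the macrophage marker Lyz2 went the other way, with 186, 76 and 86, and Col1a1 had at most 30 and Csf1r at most 12 reads in any library. In the same order, the summed normalized counts were 42.6, 73.5 and 95.3 for the 4 of 6 smooth muscle markers that were listed, 131, 1404 and 2738 for the 2 of 5 fibroblast markers, and 8146, 17770 and 26858 for the 3 of 7 macrophage and leukocyte markers, nearly all of it Cd68. Lyve1 was the 1 of 3 lymphatic markers listed. The part of these shifts in the results below was not tested, and in a bulk library fewer cells of a type and less RNA per cell cannot be told apart.

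The 3 ID genes did not share a direction. Id2 was lower in both treated libraries, and Id1 and Id3 were at or slightly above control, except that Id3 with Et2HOBA lay at a log2 ratio of -0.01 under total-count scaling. Id2 (ENSMUSG00000020644.9, chromosome 12, 25093799 to 25097140 on GRCm38) had 1090 reads in the control library, 676 after glucose oxidase and 439 with Et2HOBA. After scaling to a common depth, these counts were 0.663 of the control level after glucose oxidase (interval 0.601 to 0.730) and 0.400 of it with Et2HOBA (0.357 to 0.447). Between the treated libraries Id2 was lower with Et2HOBA, at 0.604 of the glucose oxidase level (0.534 to 0.682). None of these intervals reached 1.

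Id1 (ENSMUSG00000042745.9, chromosome 2, 152736251 to 152737410), the most abundant ID gene here, had 3442, 3627 and 4265 reads in the 3 libraries, taken in that order. Its normalized count was 1.13-fold that of control after glucose oxidase (1.07 to 1.18) and 1.23-fold with Et2HOBA (1.18 to 1.29). Id3 (ENSMUSG00000007872.3, chromosome 4, 136143497 to 136145755) had 1093, 1120 and 1210 reads in the same order. It was 1.10-fold control in both treated libraries (1.01 to 1.19 in each), and the treated libraries could not be told apart at this depth, with a ratio of 1.004 (0.925 to 1.09). In control, Id2 and Id3 had nearly equal reads; with Et2HOBA, Id2 had 439 and Id3 1210.

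**Figure D1:**
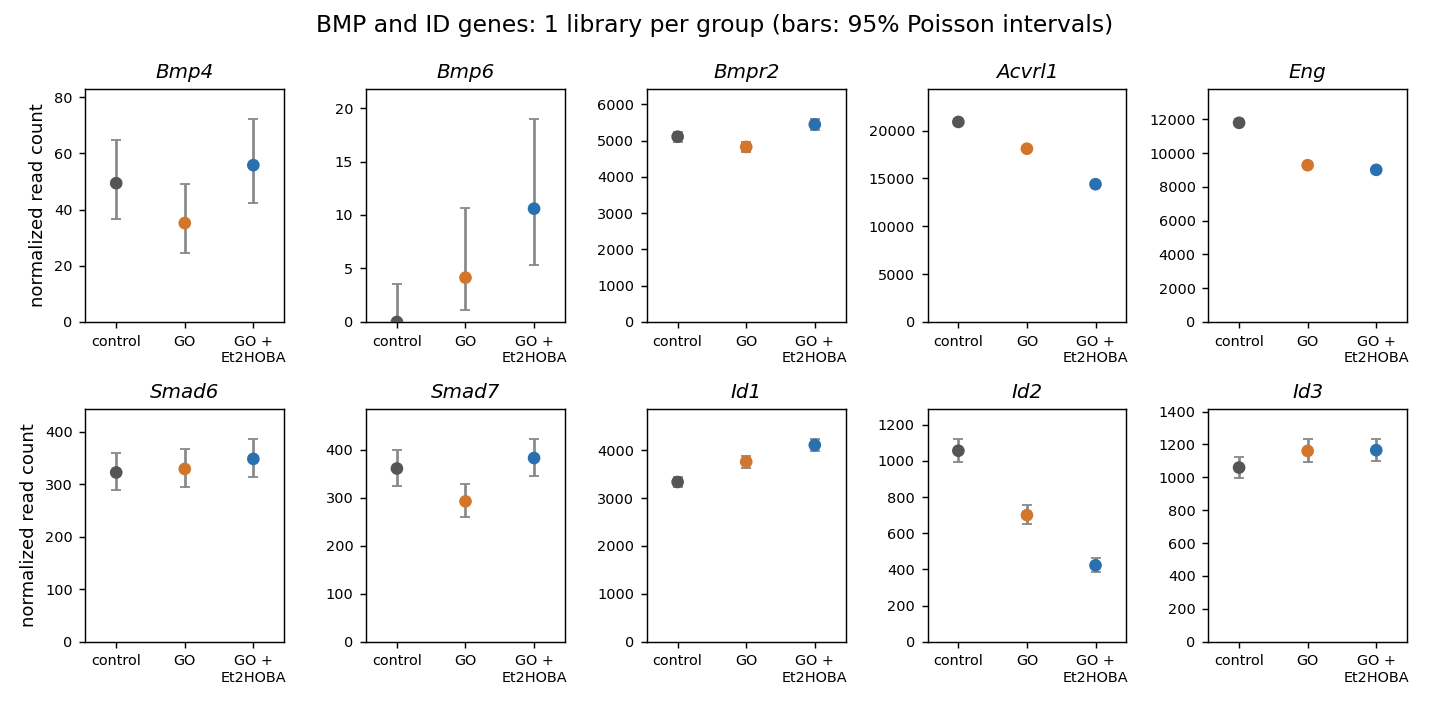
Normalized read count (vertical axis, linear from 0) of each of the 10 genes in the control, glucose oxidase (GO) and glucose oxidase plus Et2HOBA libraries, 1 point per library, with 95% Poisson intervals for counting error. Id2 steps down from 1056 to 700 and 423 while Id1 goes from 3335 to 3757 and 4106, and Bmp6 stays near 0.

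On a scale of RPKM (reads per kilobase of exon per 1000000 reads), which allows levels of different genes to be compared, the summed level of the 3 ID genes was 112, 115 and 113 over the libraries in order. The sum depended on the scaling: RPKM divides by total reads, and with the size factors used for the folds it was 1.07-fold control after glucose oxidase and 1.12-fold with Et2HOBA. The makeup of the sum, which no scaling between libraries touches, shifted. Id1 supplied 73.7% of this sum in control and 81.1% with Et2HOBA, Id3 15.2% and 14.9%, and Id2 11.1% and 3.97%. The same shift can be read from raw reads. Id2 took 19.4% of the reads of the 3 genes in control (exact Clopper-Pearson interval 18.4 to 20.4), 12.5% after glucose oxidase (11.6 to 13.4) and 7.42% with Et2HOBA (6.77 to 8.12). The share of Id3 was 19.4%, 20.7% and 20.5% in the same order, with overlapping intervals, and that of Id1 was 61.2%, 66.9% and 72.1%.

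**Figure D2:**
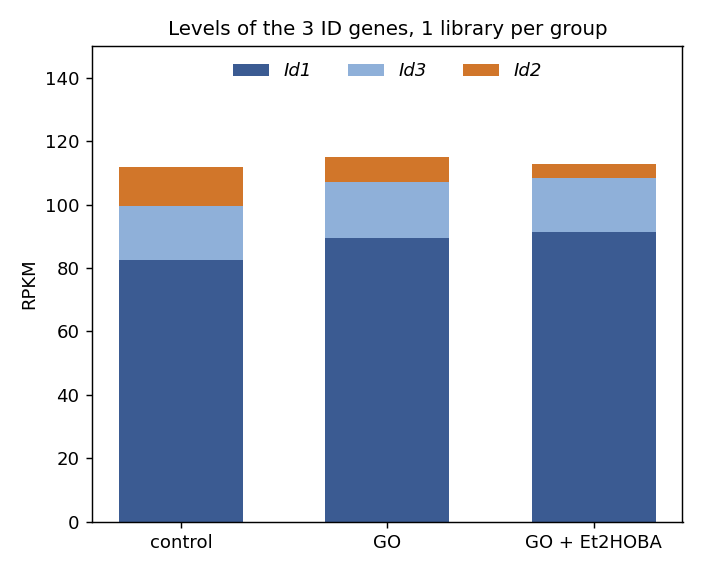
Stacked levels of Id1, Id3 and Id2 (vertical axis, RPKM) in the control, glucose oxidase (GO) and glucose oxidase plus Et2HOBA libraries, 1 library per bar. On this scale, which divides by total reads, the bars reach 112, 115 and 113, and the Id2 segment shrinks from 12.4 to 7.92 and 4.48.

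Stretches before the start sites of Id2 and Id3 are shown because these ID genes had nearly equal reads in control and diverged after treatment. The sequences are from RefSeq promoters of GRCm38.p6, where 7 of the 10 genes had an entry and Id1, Acvrl1 and Smad7 had none. The 250 bases before each start were searched on both strands for GGCGCC, a GC-rich SMAD element of BMP targets that reads the same on both strands, and for GTCTG, a SMAD-binding element whose other strand reads CAGAC. The Id2 stretch below lies on the minus strand at chr12:25096254-25096342, at positions -250 to -162 from the RefSeq start. It is outside every exon of GENCODE M21 but inside the span of the Id2 gene given above, which starts further upstream. The other 161 of the 250 bases searched for Id2 lie in annotated exons. Capitals mark GGCGCC. The Id3 stretches are 25 bases around each match, on the plus strand at chr4:136143645-136143669 and chr4:136143744-136143768, inside an exon of a longer GENCODE transcript; capitals mark CAGAC and GTCTG.
Id2: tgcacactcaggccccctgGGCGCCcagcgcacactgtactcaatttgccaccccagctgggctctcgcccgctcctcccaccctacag
Id3, first match: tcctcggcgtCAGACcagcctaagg
Id3, second match: acccttggcgGTCTGttttgaataa

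Id2 thus held GGCGCC once and no GTCTG on either strand, and Id3 held GTCTG once on each strand and no GGCGCC. Of all 32851 promoter entries, 9.59% held GGCGCC and 42.2% held GTCTG or CAGAC in the same window, so neither match is rare. Smad6 and Bmp4 held none of these letters there, Bmpr2 held GGCGCC once and Bmp6 held CAGAC once. For Bmpr2 and Bmp6 all 250 bases lie in annotated exons. A match in a window is a description of the sequence and not a measured site.

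Among the receptors, Acvrl1 and Eng were abundant and were lower in both treated libraries, and Bmpr2 was less abundant and nearly level. Acvrl1 (ENSMUSG00000000530.16, chromosome 15, 101128522 to 101145336), the type I receptor, had 21570 control reads, 17476 after glucose oxidase and 14951 with Et2HOBA. This was 0.866 of the control level after glucose oxidase (0.849 to 0.884) and 0.689 with Et2HOBA (0.674 to 0.703), and the level with Et2HOBA was 0.795 of that without it (0.778 to 0.813). An antisense gene over one of its exons, Gm16031, had 116, 120 and 71 reads; strand use in counting is not given in the sources used here, and this number is small beside Acvrl1.

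Eng (ENSMUSG00000026814.16, chromosome 2, 32646595 to 32682669), whose product endoglin presents ligand to that receptor, had 12170, 8962 and 9356 reads, again in the order control, glucose oxidase, both agents. It was at 0.787 of control after glucose oxidase (0.766 to 0.809) and at 0.764 with Et2HOBA (0.743 to 0.785). Most of the gap from control was therefore present with glucose oxidase alone, and the ratio between the treated libraries was 0.970 (0.943 to 0.999). The 250 bases before its start, on the plus strand at chr2:32646345-32646594 and outside every annotated exon, are shown because Eng, like Id2, lay below control in both treated libraries and had a promoter entry; capitals mark CAGAC and GTCTG, 1 match of each. It was chosen after its values were seen.
Eng: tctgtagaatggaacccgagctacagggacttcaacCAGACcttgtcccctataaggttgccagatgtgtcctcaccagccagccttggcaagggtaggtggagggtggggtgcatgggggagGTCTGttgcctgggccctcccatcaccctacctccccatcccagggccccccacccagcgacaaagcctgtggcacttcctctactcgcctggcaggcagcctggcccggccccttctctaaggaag

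Bmpr2 (ENSMUSG00000067336.6, chromosome 1, 59763400 to 59879014), the type II receptor, had 5270, 4657 and 5653 reads in the same order and stayed within 12.8% of its own level in any pair of libraries. It was 0.945 of control after glucose oxidase (0.908 to 0.983) and 1.07-fold control with Et2HOBA (1.03 to 1.11), and the latter sign turned with total-count scaling. In RPKM, Acvrl1 stood at 141, 117 and 87.2, Eng at 83.6, 63.2 and 57.5, and Bmpr2 at 8.15, 7.40 and 7.82. The level of Acvrl1 was thus 17.3 times that of Bmpr2 in control, 15.8 times after glucose oxidase and 11.2 times with Et2HOBA. Among the 17878 listed genes with an exon length, Acvrl1 was above 98.4% by this measure in control and above 97.0% with Et2HOBA. It thus remained one of the most abundant transcripts.

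Both ligands were scarce. Bmp4 (ENSMUSG00000021835.15, chromosome 14, 46383520 to 46390669) had 51 control reads, 34 after glucose oxidase and 58 with Et2HOBA. Against control its ratio was 0.713 (0.448 to 1.12) and 1.13 (0.762 to 1.68), so a difference from control was not detectable at this depth. Between the treated libraries its ratio was 1.59 with Et2HOBA (1.02 to 2.50), an interval that began close to 1. The log2 ratio of this pair was 0.54, but 0.46 with total-count scaling and 0.09 on the scale of the authors' deposited values. Bmp6 (ENSMUSG00000039004.6, chromosome 13, 38345107 to 38500302), a ligand also known for its link to iron status, had 0, 4 and 11 reads.

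A count of 0 for Bmp6 in control allows up to 3 reads, and the 11 reads with Et2HOBA were 3.64-fold that limit; with the counting error of both libraries included, the interval of the ratio began at 2.49-fold. The 4 reads after glucose oxidase had a Poisson interval of 1.09 to 10.2 and the 11 reads with Et2HOBA one of 5.49 to 19.7, and these overlap. The 3′ end of Bmp6 overlaps that of Txndc5, a protein disulfide isomerase gene on the opposite strand, and 4.94% of the 50-base stretches of the longest Bmp6 transcript lie in Txndc5 as well. Txndc5, named after its values were seen, had 5309, 4927 and 5389 reads. How many of the Bmp6 reads came from Txndc5 was not tested.

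Of the inhibitory SMADs, Smad6 was nearly level and Smad7 was lower after glucose oxidase alone. Smad6 (ENSMUSG00000036867.7, chromosome 9, 63953076 to 64022059) had 333, 318 and 362 reads over the libraries in order. Its ratios to control were 1.02 (0.873 to 1.19) and 1.08 (0.928 to 1.26), which counting error alone spans. Smad7 (ENSMUSG00000025880.11, chromosome 18, 75367529 to 75395935) had 372, 282 and 397 reads. It was at 0.810 of control after glucose oxidase (0.692 to 0.949) and at 1.06 with Et2HOBA (0.918 to 1.22), and 1.31-fold higher with Et2HOBA than without it (1.12 to 1.53). Smad7, Bmp4 and Bmpr2 were the 3 members with their lowest level in the glucose oxidase library, while Id2, Acvrl1 and Eng were lowest with Et2HOBA. Bmp6, Smad6, Id1 and Id3 were highest with Et2HOBA and lowest in control, an order that total-count scaling changed for Smad6 and Id3. Of all 18287 genes, 4216 were lowest with glucose oxidase, 5136 fell in library order and 4936 rose, so no order sets the members apart. Counting error spans some of these steps, as for Bmp4 against control, Smad6 and Id3 between the treated libraries. Bmp6 was listed only through its reads with Et2HOBA, so that library had to be its highest.

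To set the members beside all genes, log2 ratios of normalized count plus 10 were used, a scale that understates the change of low genes, and genes were counted where the ratio reached 1 log2 unit up or down. After glucose oxidase, 0 of 10 members passed, where 12.7% of all listed genes did. With Et2HOBA against control, 2 of 10 passed, where 14.7% of all genes did: Id2 at -1.30 and Bmp6 at 1.04, the latter from 0 and 11 reads. Bmp6 was listed only through its reads with Et2HOBA, so its direction here was fixed in advance. Between the treated libraries 0 of 10 passed, where 8.55% of all genes did. The counting interval excluded equal levels for 7 of 10 members in each of the 3 comparisons, against 60.3%, 64% and 54.7% of all genes. Over the 9 members with a mean normalized count of 10 or more, which leaves out Bmp6, it did so for 6 with Et2HOBA against control. These shares give no ground to set the members apart from other genes.

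The median log2 ratio of the members was -0.14 for glucose oxidase against control, 0.10 for both agents against control and 0.10 for the treated pair, beside -0.01, 0.00 and 0.00 for all genes. With Bmp6 set against its limit of 3 control reads the first 2 medians were the same. Total-count scaling moved the median of all genes to -0.13 with Et2HOBA against control, and Bmpr2, Smad6, Smad7 and Id3 then had log2 ratios between -0.07 and -0.01 in place of values from 0.08 to 0.14. The median of the members also turned, to -0.05, which still lay above that of all genes. Id1 stayed above control there, at 0.15, and Id2, Acvrl1 and Eng stayed below. With Et2HOBA against control, 5.15% of all genes had a lower log2 ratio than Id2, 19.6% a lower one than Acvrl1 and 25.9% a lower one than Eng.

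**Figure D3:**
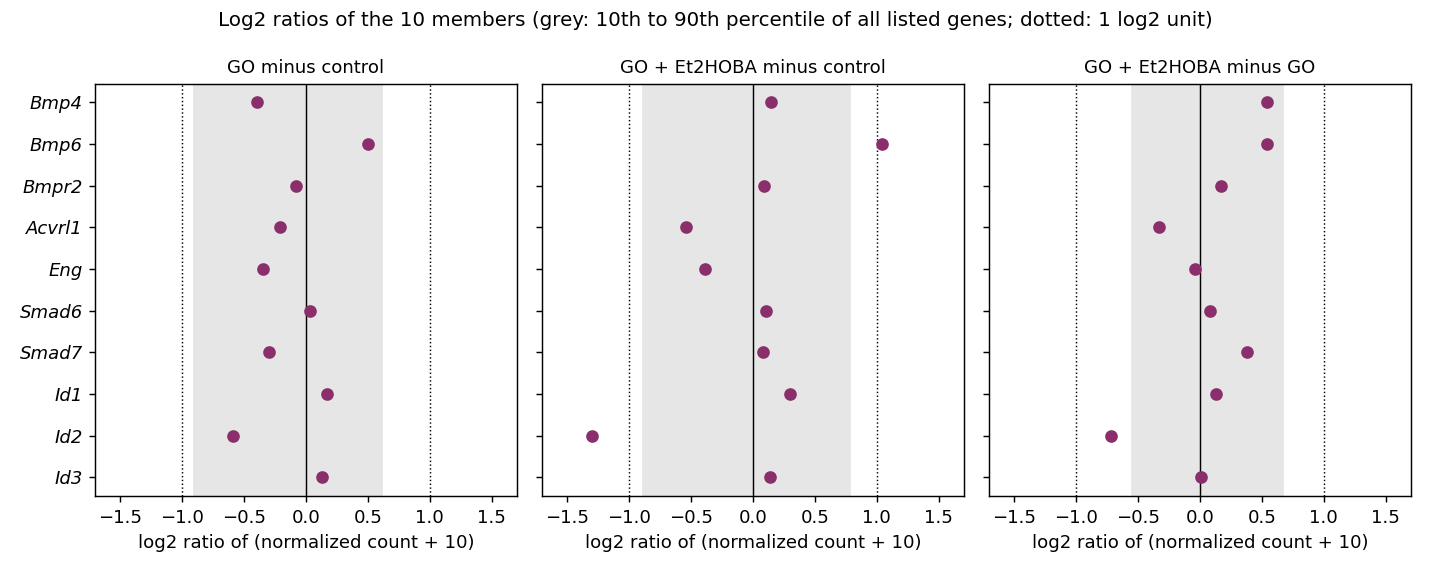
Log2 ratio of normalized count plus 10 (horizontal axis) of the 10 members in 3 comparisons of single libraries (GO, glucose oxidase), with the 10th to 90th percentile of all listed genes in grey and 1 log2 unit dotted. In the middle panel Id2 at -1.30 and Bmp6 at 1.04 lie outside the dotted lines, and the other points lie between -0.54 and 0.30.

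In the authors' deposited table for glucose oxidase against control, Id2 had a log2 difference of -0.49, Eng of -0.34, Acvrl1 of -0.20 and Id1 of 0.17. In the authors' deposited table for both treatments against control, the values were -1.20 for Id2, -0.54 for Acvrl1, -0.39 for Eng and 0.29 for Id1. The deposited transformation shrinks low counts by a different amount in each table, so these values are not comparable between tables. No member is among the 7 genes for which the authors' deposited table compares the treated libraries.

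Other genes of the BMP and activin pathway were taken from a list of 64, of which 41 were listed. The other genes, among them Bmp2, Bmpr1a, Smad9, Id4 and Hey1, were not analysed here. Of the 41, 3 were higher and 1 lower by 1 log2 unit after glucose oxidase, where 4.07% and 8.6% of all genes were. With Et2HOBA against control, 6 were higher and 5 lower, beside 6.66% and 8.04% of all genes, and the median log2 ratio was 0.26. Between the treated libraries, 2 were higher and 2 lower, beside 6.39% and 2.15%.

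Of 13 further ligand genes 2 were listed, Inhba and Inhbb, which encode the beta subunits of activins, ligands that signal through SMAD2 and SMAD3. Both were higher in each treated library. Inhba had 52, 126 and 463 reads over the libraries in order, and was 8.85-fold control with Et2HOBA (6.63 to 12.0). Inhbb had 294, 556 and 1558 reads, and was 2.02-fold control after glucose oxidase (1.75 to 2.34) and 5.27-fold with Et2HOBA (4.65 to 5.98). Both also differed between the treated libraries, by 3.42-fold for Inhba (2.80 to 4.19) and 2.60-fold for Inhbb (2.36 to 2.87). Fst, whose product follistatin binds activins, had 463, 435 and 733 reads.

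Of 9 listed receptors and co-receptors, 1 was higher and 2 were lower past the limit with Et2HOBA against control, beside 6.66% and 8.04% of all genes. With so few genes in a role, this count and those of the roles below give no ground to set a role apart. Tgfbr2, the type II receptor for TGF-beta, had 19060, 10028 and 7089 reads, the treated libraries being at 0.562 (0.549 to 0.576) and 0.370 (0.360 to 0.380) of control. The BMP co-receptor genes of the repulsive guidance molecule family lay on opposite sides of control. Rgmb went from 2696 reads to 1491 and 1319, and Rgma from 86 to 182 and 327, where 5.82% of the stretches of Rgma are shared with another annotated gene. The type I receptor Acvr1 had 633, 725 and 1093 reads and was 1.72-fold control with Et2HOBA (1.55 to 1.90), so the type I receptor genes Acvr1 and Acvrl1 lay on opposite sides of control.

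None of the 5 listed SMAD transducers passed the limit in any comparison, and 14.7% of all genes did with Et2HOBA against control. Smad1 had 1113, 1092 and 1384 reads and Smad5 had 4169, 3057 and 3079; these are the transducers of BMP receptors, and with Et2HOBA they stood at 1.24-fold (1.14 to 1.34) and 0.734 (0.700 to 0.769) of control. Smad4, the common partner, had 2580, 2956 and 3940 reads, or 1.52-fold control with Et2HOBA (1.44 to 1.60). Of 7 intracellular inhibitors, 1 passed the limit with Et2HOBA against control, beside 14.7% of all genes. Smurf1, a ubiquitin ligase that targets BMP receptor SMADs, had 8255, 14082 and 22395 reads and was 1.82-fold (1.77 to 1.87) and 2.70-fold (2.63 to 2.76) control. The median log2 ratio of the 7 inhibitors was 0.66 with Et2HOBA against control, beside -0.0002 for all genes. Of the 7, 6 lay above control and 1 below, where 9140 of all 18287 genes lay above and 9146 below. The inhibitor below control was Bambi, with 227, 143 and 173 reads, at 0.757 of control with Et2HOBA (0.618 to 0.927).

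Of 10 listed extracellular antagonists and modulators, 2 were higher and 1 was lower past the limit with Et2HOBA against control, beside 6.66% and 8.04% of all genes. Bmper, a secreted BMP-binding modulator of endothelial cells, had 15, 44 and 68 reads, or 4.50-fold control with Et2HOBA (2.55 to 8.48). The antagonist Nbl1 had 3, 10 and 28 reads, a ratio of 9.27 from few reads (2.86 to 47.7). Fstl1, a secreted follistatin-like protein gene, was lower, with 20450, 12187 and 9784 reads, or 0.475 of control with Et2HOBA (0.464 to 0.487).

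Of 3 other endothelial BMP targets listed, Atoh8 had 81, 64 and 26 reads and was at 0.319 of control with Et2HOBA (0.197 to 0.501), Hey2 had 95, 111 and 82 reads, and Tmem100 had 9, 1 and 3 reads, too few to place. The list also held 5 other helix-loop-helix genes: the E protein genes Tcf3, Tcf4 and Tcf12, with Tal1 and Lyl1. Of these 5, 1 passed the limit, in all 3 comparisons, where 12.7%, 14.7% and 8.55% of all genes did. It was Lyl1, which is not an E protein gene. Lyl1, a helix-loop-helix factor of endothelial and blood cells, had 1029, 453 and 205 reads, or 0.471 (0.420 to 0.526) and 0.198 (0.170 to 0.230) of control. Among the E protein genes, Tcf4 had 7810, 4973 and 4985 reads and was at 0.634 of control with Et2HOBA (0.612 to 0.657), whereas Tcf3 had 3216, 3596 and 3816 reads and Tcf12 4428, 4601 and 5360. Tcf3 and Tcf12 were 1.18-fold (1.12 to 1.24) and 1.20-fold (1.16 to 1.25) control with Et2HOBA.

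**Figure D4:**
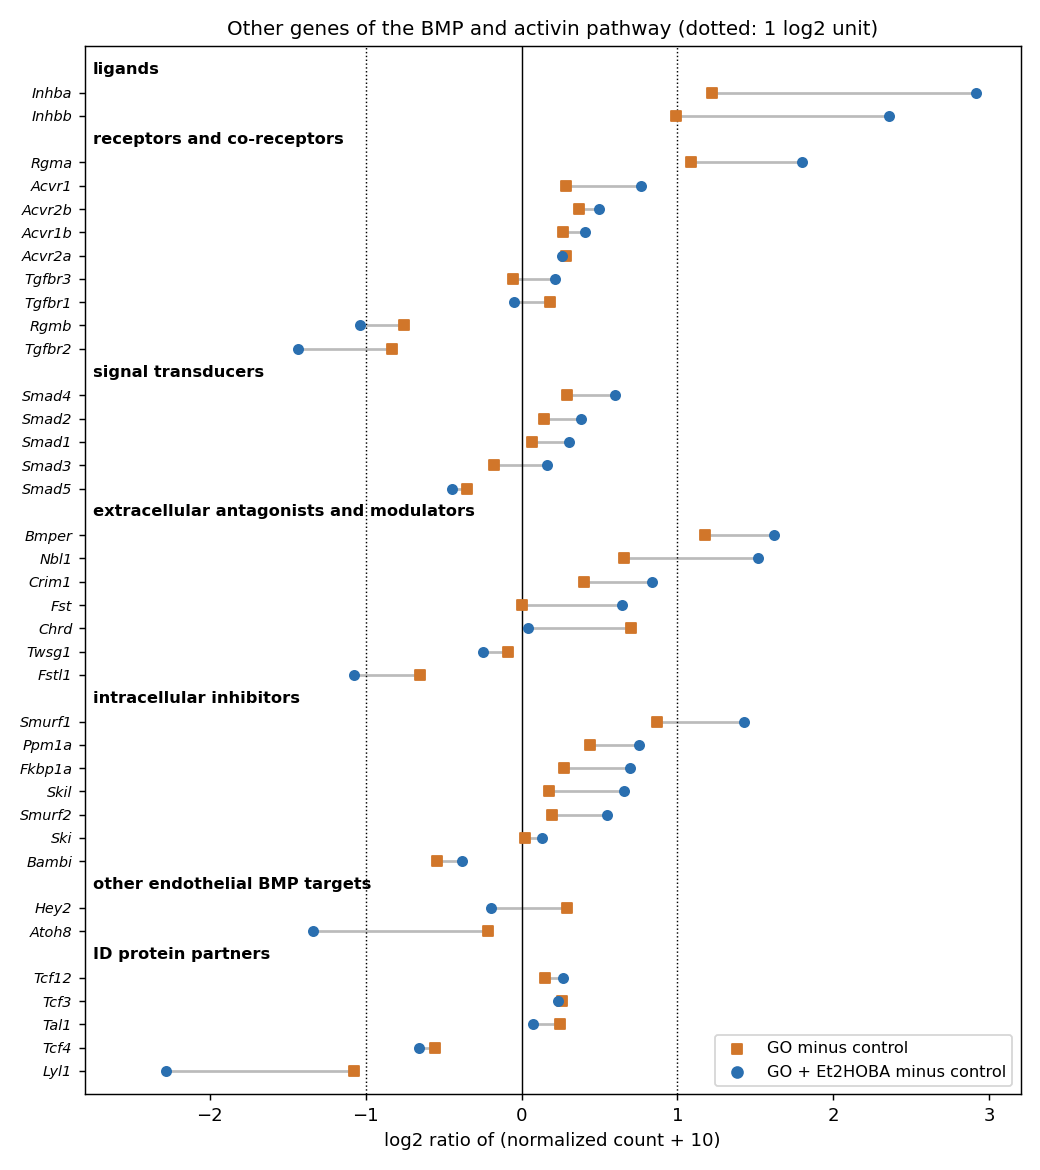
Log2 ratio to control of normalized count plus 10 (horizontal axis) for the 37 of 41 listed pathway genes with a mean normalized count of 10 or more, by role, after glucose oxidase (GO, squares) and with Et2HOBA (circles), 1 library each against the same control library. Inhba and Inhbb lie farthest to the right, at 2.92 and 2.36 with Et2HOBA, and Lyl1 farthest to the left, at -2.28. The role drawn as ID protein partners also holds Tal1 and Lyl1, which are not E protein genes.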

How the data were processed

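Polyadenylated RNA was made into stranded libraries, per the labels' protocols. STAR, featureCounts and the build mm10 are named, without roles or versions, in the submitters' processing notes. The authors deposited raw read counts of the control and glucose oxidase plus Et2HOBA libraries with log-normalized values and their log2 differences, per the file headers, and for glucose oxidase only log2 differences to control. The normalization is not given in the sources used here.

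The deposited log2 differences are differences of arcsinh-transformed counts (2 asinh of the root of a library constant times the reads). Solving for the glucose oxidase library from the control counts gave whole reads, to within 0.01, in 100% of the 18258 genes with a unique symbol, against 3.30% if every control count was raised by 1. The other 29 genes, 19 of them with symbols turned into dates, were placed by whole reads. The constants and intervals were tested on simulated data. The 7 deposited values of the treated libraries were met within 4.94e-10.

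Normalized counts are reads over size factors (median of ratios, 3 libraries: 1.03, 0.965 and 1.04). A pseudocount of 10 was added for log2 ratios, not for folds. No count model was fitted, since 1 library per group gives no spread. Exon lengths, overlaps and shared 50-base stretches came from GENCODE M21, in which 17878 gene IDs had the same version and, all 17878, the same position. edgeR 4.0.16 gave the TMM factors of 1 alternative; other steps used Python 3.11.15 with numpy 2.4.6 and scipy 1.17.1.

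The members, lists and limit were chosen with earlier results of these data known. All members are named; of the wider list, genes past the limit against control with a mean normalized count of 10 or more are named, at most 5 per role, with direct partners of the members. Fst, Hey2, Tmem100, Bambi, Gm16031, Txndc5 and the markers named in the text were chosen after their values were seen.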

Additional observations from a re-analysis of the deposited data

How the results depend on the processing

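No paired analysis was possible because each group has 1 library, and for the same reason no replicate could be left out. Of 150 recomputed values of single members, 137 shifted by no more than the distance from the middle to either end of their log2 counting interval. The other 13 shifted further. These were Id2 and Smad7 between the treated libraries on the scale of the deposited values, and the rest with total-count scaling. That scaling took Id1 with Et2HOBA against control from 0.30 to 0.15, Acvrl1 from -0.54 to -0.69 and Eng from -0.39 to -0.54. The counting intervals hold the size factors fixed and do not cover such shifts. For Bmp6 against control the distance to the upper end of the interval has no bound, since control had 0 reads. Its values there thus could not count as moved. With Et2HOBA against control, Bmp6 went from 1.04 to 3.53 with a pseudocount of 1 and to 0.28 with a pseudocount of 50. The 2 values past 1 log2 unit, Id2 and Bmp6 with Et2HOBA against control, kept their sign. This is no check, since a pseudocount cannot turn the sign of a ratio and the scalings moved ratios by far less than 1. Smaller values changed sign in 7 cases, all with total-count scaling.

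The count of members past the limit was 0 after glucose oxidase, but 1 with a pseudocount of 1 and 2 at a limit of 0.5, which 33.8% of all genes passed. With Et2HOBA against control it was 2, but 1 with a pseudocount of 50 and 0 at a limit of 2 (3.8% of all genes). Over genes with a mean normalized count of 10 or more it was 1 (Bmp6 was left out), where 16.4% of all such genes passed. Between the treated libraries it was 0, but 1 with a pseudocount of 1 and 3 at a limit of 0.5, which 25.5% of all genes passed. The share of all genes past the limit was not computed for pseudocounts of 1 and 50. Counts under these pseudocounts, here and for the wider list, thus cannot be set beside all genes. The members' median with Et2HOBA against control was 0.10, and -0.0494 with total-count scaling.

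For the wider list, the count of 4 after glucose oxidase became 8 with a pseudocount of 1, 1 with a pseudocount of 50, 15 with 0.5 log2 unit as the limit (33.8% of all genes) and 0 with 2 (2.88%). The count of 11 with Et2HOBA against control became 23 at 0.5 (40.1% of all genes) and 3 at 2 (3.8%), and the count of 4 between the treated libraries became 11 (25.5%) and 0 (2.14%). Apart from the limits, which set how many genes pass, and the filter, the cause of these moves was not tested. On the scale of the deposited values of the treated libraries, Id2 was at -0.31 in place of -0.72, Smad7 at 0.14 in place of 0.38 and Bmp4 at 0.09 in place of 0.54. Depth limits what can be said of Bmp4, Bmp6, Nbl1 and Tmem100.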
